A study of Homo sapiens with 6 samples.

Results

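To learn how enzymes that make and consume 2-oxoglutarate responded to loss of fumarylacetoacetate hydrolase (FAH, the last enzyme of tyrosine breakdown), mRNA signals of isocitrate, oxoglutarate and glutamate dehydrogenases were examined in A375, an established human melanoma cell line. The genes were chosen by name, and each was read by the probe set selected on the highest mean signal over all 6 arrays among those with 1 gene symbol. The list holds 9 genes: IDH1, IDH2, IDH3A, IDH3B, IDH3G, OGDH, DLST, DLD and GLUD1. Of these, 8 were measured among 18372 genes. GLUD1 (glutamate dehydrogenase) had no probe set in the annotation used here and was not analysed. Each of the 8 genes had a single probe set, so no probe set was preferred by its signal within this group, and the comparison of siFAH with control played no part in the choice of probe sets.

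The samples were A375 cells transfected with negative control siRNA (3 arrays, called control below) or with siFAH, the siRNA against FAH (3 arrays), all 72 h after transfection, each on 1 Affymetrix Human Gene 1.0 ST array. All cells came from a single line, and the labels do not say which of the study's FAH siRNAs was used, so effects of the siRNA on other transcripts cannot be told apart from effects of FAH loss. The study transfected cells in triplicate, and nothing in the labels says how separate the cultures were, so p values measure the spread between these samples. Arrays read the RNA of whole cultures, in which fewer cells with a transcript and less of it per cell cannot be told apart. The melanocyte lineage factor SOX10 had a mean log2 signal of 8.56 in control arrays against a median of 5.46 over all genes, whereas the pigment cell genes PMEL (3.88), MLANA (2.90), TYR (2.95) and TYRP1 (2.87) lay below that median. Over 8 lineage markers the log2 of the summed linear signal was 9.49 to 9.54 in control and 9.36 to 9.48 in siFAH arrays, with none called, and 4 of the 8 were above the median. Over 6 markers of blood, endothelial and epithelial cells it was 6.59 to 6.75 in control and 6.75 to 6.87 in siFAH arrays, again with none called and all 6 below the median in control arrays, from PTPRC at 2.32 to KRT14 at 5.38, and the part of either shift in the results below was not tested. FAH mRNA read 5.48, 5.59 and 5.68 in control arrays and 4.92, 4.60 and 4.92 in siFAH arrays, 41.3% lower on the linear scale (log2 fold change -0.77, SE 0.10, adjusted p = 0.00213 from limma).

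Isocitrate dehydrogenases turn isocitrate into 2-oxoglutarate. IDH1 does so with NADP in the cytosol and peroxisomes, IDH2 does so with NADP in mitochondria, and the NAD-dependent enzyme of the TCA cycle is built from IDH3A, IDH3B and IDH3G. The oxoglutarate dehydrogenase complex of mitochondria then converts 2-oxoglutarate to succinyl-CoA through the decarboxylase OGDH, the succinyltransferase DLST and the lipoamide dehydrogenase DLD, the last of which also serves the pyruvate and branched-chain complexes and the glycine cleavage system. 2-Oxoglutarate is also the amino group acceptor of many aminotransferases and the co-substrate of dioxygenases that act on histones, DNA, RNA, collagen and hypoxia-inducible factors.

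Promoter sequences are shown for 4 genes: IDH1, IDH3A and DLD, which were lower after FAH silencing, and DLST, which belongs to the same complex as DLD and did not pass the test. Each is the 250 bases before a transcription start in RefSeq (GRCh38.p14), written 5′ to 3′ on the strand of the gene, with motif matches in capitals. The IDH1 window is chr2:208255072-208255321 on the minus strand and overlaps the divergent noncoding gene IDH1-AS1. The IDH3A window is chr15:78149112-78149361 on the plus strand and overlaps the noncoding gene LOC124903534. The DLST window is chr14:74881666-74881915 and the DLD window is chr7:107890857-107891106, both on the plus strand with no annotated gene inside.
IDH1: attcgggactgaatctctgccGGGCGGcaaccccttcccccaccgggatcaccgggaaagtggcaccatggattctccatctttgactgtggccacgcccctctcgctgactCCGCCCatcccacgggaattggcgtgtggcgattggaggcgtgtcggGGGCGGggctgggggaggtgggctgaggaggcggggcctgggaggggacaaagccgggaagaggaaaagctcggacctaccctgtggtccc
IDH3A: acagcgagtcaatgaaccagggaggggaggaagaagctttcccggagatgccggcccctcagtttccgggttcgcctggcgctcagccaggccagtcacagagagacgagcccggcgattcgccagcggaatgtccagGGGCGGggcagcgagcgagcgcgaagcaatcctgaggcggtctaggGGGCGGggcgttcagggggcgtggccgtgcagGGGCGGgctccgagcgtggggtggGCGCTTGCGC
DLST: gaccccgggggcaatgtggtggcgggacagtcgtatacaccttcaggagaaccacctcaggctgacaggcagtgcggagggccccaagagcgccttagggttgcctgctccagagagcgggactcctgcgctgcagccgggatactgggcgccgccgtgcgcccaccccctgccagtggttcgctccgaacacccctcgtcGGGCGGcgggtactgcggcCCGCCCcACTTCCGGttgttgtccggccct
DLD: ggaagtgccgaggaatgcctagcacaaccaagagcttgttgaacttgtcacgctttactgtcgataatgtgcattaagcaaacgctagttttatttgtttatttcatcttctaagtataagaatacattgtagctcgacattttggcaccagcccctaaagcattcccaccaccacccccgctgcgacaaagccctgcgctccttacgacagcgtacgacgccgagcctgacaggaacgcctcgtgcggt

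The motifs searched on both strands were the GC box (GGGCGG), the NRF1 site, the ETS site (CCGGAAGT), the E-box (CACGTG), the composite site of ATF4 and C/EBP (TGATGNAA) and the cyclic AMP response element (TGACGTCA). In the windows printed, no 2 matches overlapped. The capitals mark 3 GC boxes in IDH1, 3 GC boxes and, directly at the start, 1 NRF1 site in IDH3A, and 2 GC boxes and 1 ETS site in DLST, and DLD had no match. A GC box was found in 42.6% of 35114 RefSeq windows of this length, an NRF1 site in 5.07% and an ETS site in 3.42%. An E-box (6.35% of all windows), the ATF4 composite site (3.14%) and the cyclic AMP element (1.65%) were in none of the 10 windows of these genes, which covered 8 of the 9 listed genes. OGDH had no entry. The other windows with an NRF1 site were those of IDH3G and GLUD1, and the other with an ETS site was that of IDH3B. These matches describe letters in the windows and do not show that any factor was bound.

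**Figure D1:**
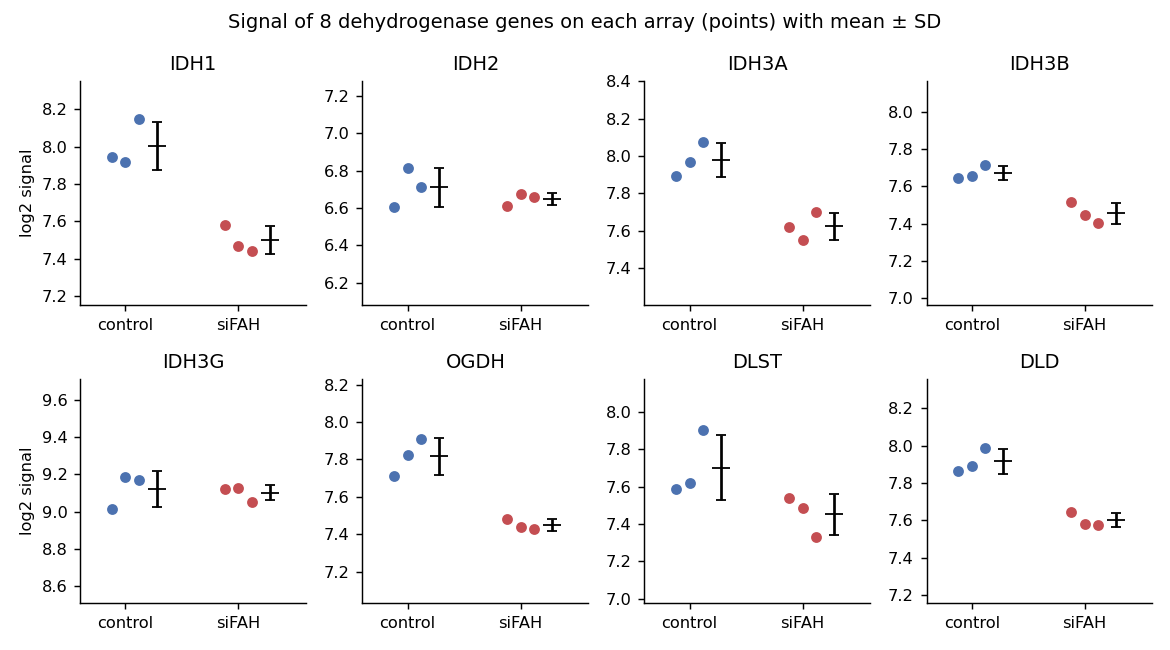
Log2 signal (vertical axis) of each gene on the 3 control arrays (blue points) and the 3 siFAH arrays (red points), with the group mean ± SD in black. Every panel spans the same range on the log2 scale, and the siFAH arrays lie below all control arrays in 6 of 8 panels, with overlap in those of IDH2 and IDH3G.

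Of the 8 genes measured, 4 were lower after FAH silencing (IDH1, OGDH, IDH3A and DLD) and 0 were higher at an adjusted p under 0.05 from limma. By SAM and by limma at the study's limits (unadjusted p under 0.05 and at least 1.2-fold) 4 were also lower, and 0 were higher. Across all 18372 genes, 6.38% were lower and 3.48% were higher. The siFAH arrays lay below every control array for 6 of the 8 genes, against 18.6% of all genes. The median log2 fold change of the 8 genes was -0.28, against 0.0050 over all genes. Bright genes read lower as a group on these arrays. Median log2 fold changes were -0.090 in the ninth decile of mean signal and -0.11 in the brightest decile. In these deciles 13.0% and 18.9% of genes were called lower. Higher calls were also more frequent there, at 4.95% and 8.60%. IDH2 lay in the eighth decile, IDH3A and IDH3G in the brightest and the other 5 genes in the ninth. The median of the 8 genes was -0.21 after quantile normalization and -0.19 after cyclic loess between arrays, and -0.34 when each array was centred on its median. As each array was left out in turn, the number of these genes called lower ran from 1 to 4. It was 1 without control replicate 2 or siFAH replicate 2, and 2 without control replicate 3 or siFAH replicate 3.

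IDH1, the cytosolic NADP-dependent enzyme, had the largest change of the group. Its log2 signals were 7.95, 7.92 and 8.15 in control arrays and 7.58, 7.47 and 7.44 in siFAH arrays. The lowest control array stood 0.33 above the highest siFAH array, a gap wider than the SD within either group (0.13 and 0.074, n = 3 each). IDH1 mRNA was 29.6% lower on the linear scale (log2 fold change -0.51, SE 0.08, adjusted p = 0.00548 from limma), the 204th lowest change of 18372 genes. The call held with each of the 6 arrays left out in turn, with a highest adjusted p of 0.0278, and the methods' t-test alone among 19 other settings did not call it (adjusted p = 0.118).

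IDH2, which catalyses the same reaction in mitochondria, did not pass the test. Its signals of 6.61, 6.82 and 6.71 in control arrays and 6.61, 6.68 and 6.66 in siFAH arrays overlapped. The log2 fold change was -0.06 (SE 0.07, 95% interval -0.23 to 0.10, adjusted p = 0.631 from limma). This interval does not reach a change of the size measured for IDH1.

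Since probe sets differ in brightness for reasons unrelated to mRNA amount, the isoforms were compared by the difference of their log2 signals within each array, of which only the change between groups is informative. IDH1 minus IDH2 was 1.34, 1.10 and 1.44 in control arrays and 0.97, 0.79 and 0.78 in siFAH arrays, so the groups did not overlap. The difference shifted by -0.44 on the log2 scale (SE 0.12, exact two-sided permutation test p = 0.1, n = 3 per group), and 0.1 is the smallest p that 3 arrays against 3 allow. Of all 168756006 pairs of the 18372 genes, 32.8% had no overlap between groups in one direction or the other, so this separation is common on these arrays. The shift was between -0.54 and -0.37 under every other setting in which it was computed. Of these settings, median centring, averaged probe sets and the replicate block cannot change it. Without siFAH replicate 2 or siFAH replicate 3 the exact permutation p was 0.2.

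The same comparison was made for the other enzyme pairs of this neighbourhood with a cytosolic and a mitochondrial isoform. Of 7 pairs listed, 5 had both genes measured, and 3 of them had no overlap between groups, each with the cytosolic isoform lower relative to its partner. None passed an adjusted p of 0.05, and 5 pairs are too few to set against the 32.8% of all gene pairs without overlap. For the malate dehydrogenases, MDH1 minus MDH2 shifted by -0.39 (SE 0.12), and for the branched-chain aminotransferases, BCAT1 minus BCAT2 shifted by -0.42 (SE 0.09). Both reached the exact permutation p of 0.1 (n = 3 per group), which became 0.167 adjusted over the 5 pairs. In these pairs MDH1 (-0.33, adjusted p = 0.0362) and BCAT1 (-0.41, adjusted p = 0.00676) fell by limma's test, whereas MDH2 had 0.07 and BCAT2 had 0.01, the sign of which turned in 4 of 19 other settings. The call of MDH1 held in 1 of the 6 fits that left out an array, that without control replicate 1, and that of BCAT1 held in all 6.

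The other pairs overlapped. GOT1 minus GOT2, the aspartate aminotransferases, shifted by -0.13 (SE 0.15, 95% interval -0.54 to 0.28, exact permutation p = 0.4, n = 3 per group). GOT1 had -0.44 (adjusted p = 0.0138) and GOT2 had -0.31 (adjusted p = 0.0950). The malic enzymes ME1 and ME2 had -0.11 and -0.13, and their difference shifted by 0.01 (SE 0.06, 95% interval -0.16 to 0.18, exact permutation p = 0.8, n = 3 per group). The interval of the malic enzymes does not reach the shift of IDH1 minus IDH2 (-0.44). That of the aspartate aminotransferases includes it, so their overlap does not show that GOT1 and GOT2 changed alike.

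**Figure D2:**
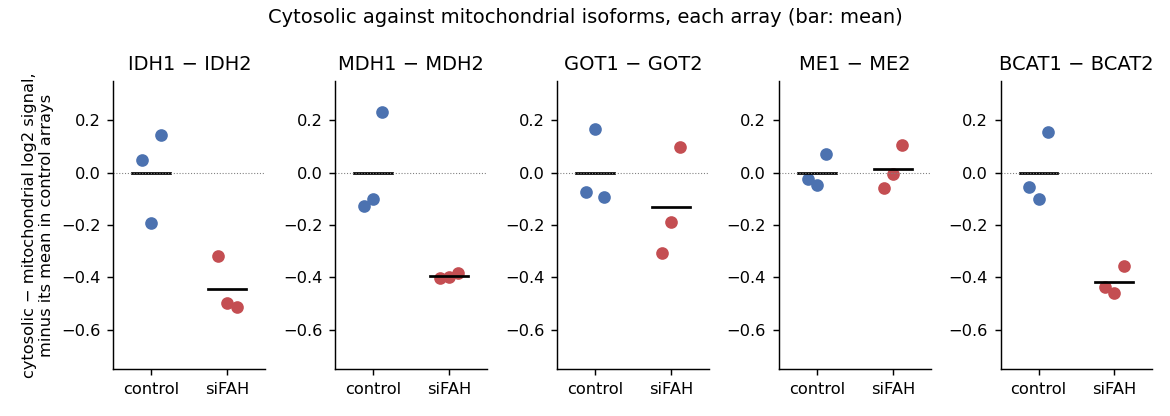
Cytosolic minus mitochondrial log2 signal on each array, less its mean over the control arrays (vertical axis), for 5 enzyme pairs, with control arrays in blue, siFAH arrays in red and group means as black bars. The groups are apart for IDH1 and IDH2 (-0.44), MDH1 and MDH2 (-0.39) and BCAT1 and BCAT2 (-0.42), and overlap for the other two pairs.

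Among the subunits of the NAD-dependent isocitrate dehydrogenase, IDH3A, which carries the catalytic site, read 7.89, 7.97 and 8.07 in control arrays and 7.62, 7.55 and 7.70 in siFAH arrays. The groups were apart by 0.19, and IDH3A was 21.8% lower (log2 fold change -0.36, SE 0.07, adjusted p = 0.0173 from limma). The adjusted p rose to 0.0593 without control replicate 2, 0.0575 without control replicate 3 and 0.0711 without siFAH replicate 2.

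IDH3B, the partner subunit, read 7.64, 7.66 and 7.72 in control arrays and 7.52, 7.45 and 7.41 in siFAH arrays. The groups did not overlap, but the log2 fold change of -0.22 (SE 0.07, 95% interval -0.36 to -0.07) missed the threshold at an adjusted p of 0.0672 from limma. IDH3B passed in 4 of 19 other settings, which were median centring, the fit without dim genes, eBayes with trend and robust, and array weights. Its change was smaller after quantile normalization (-0.15, adjusted p = 0.171) and after cyclic loess (-0.13, adjusted p = 0.218).

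IDH3G, the regulatory subunit, read 9.01, 9.19 and 9.17 in control arrays and 9.12, 9.13 and 9.05 in siFAH arrays, which overlapped. Its log2 fold change was -0.02 (SE 0.07, 95% interval -0.18 to 0.14, adjusted p = 0.880), and it turned positive after cyclic loess (0.06) and without control replicate 2, control replicate 3 or siFAH replicate 3. Within this enzyme, IDH3A minus IDH3G shifted by -0.33 (SE 0.07) and IDH3B minus IDH3G by -0.19 (SE 0.05), both without overlap of the arrays, whereas IDH3A minus IDH3B shifted by -0.14 (SE 0.07) with overlap.

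In the oxoglutarate dehydrogenase complex, OGDH, the decarboxylase that gives the complex its substrate specificity, read 7.71, 7.82 and 7.91 in control arrays and 7.48, 7.44 and 7.43 in siFAH arrays. The groups were apart by 0.23, and OGDH was 22.5% lower (log2 fold change -0.37, SE 0.07, adjusted p = 0.0129 from limma). The adjusted p was 0.0530 without control replicate 2, 0.0512 without siFAH replicate 2 and 0.0514 without siFAH replicate 3.

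DLD, the shared lipoamide dehydrogenase, read 7.86, 7.89 and 7.99 in control arrays and 7.65, 7.58 and 7.58 in siFAH arrays. It was 19.6% lower (log2 fold change -0.31, SE 0.07, adjusted p = 0.0190 from limma), with a gap of 0.22 between the groups. The call was lost without control replicate 2 (adjusted p = 0.0615), control replicate 3 (0.0582), siFAH replicate 2 (0.0704) or siFAH replicate 3 (0.0712).

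DLST, the succinyltransferase core, read 7.59, 7.62 and 7.90 in control arrays and 7.54, 7.49 and 7.33 in siFAH arrays. The groups were apart by 0.05, less than the SD within either group (0.17 and 0.11), and the log2 fold change of -0.25 (SE 0.10, 95% interval -0.46 to -0.04) had an adjusted p of 0.130 from limma. It was -0.15 without control replicate 3 and -0.16 after cyclic loess. Differences between the subunits' changes all overlapped between groups: OGDH minus DLST shifted by -0.12 (SE 0.08), OGDH minus DLD by -0.05 (SE 0.03) and DLST minus DLD by 0.07 (SE 0.08). Overlap does not show that the subunits changed alike, and the 95% interval of OGDH minus DLST ran from -0.33 to 0.09.

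Over all 28 pairs of these 8 genes, 15 had no overlap between groups, against 32.8% of all gene pairs. The 28 pairs reuse the same 8 genes and are not independent. Each of the 15 reached the smallest exact permutation p of 0.1, or 0.187 adjusted over the pairs (n = 3 per group). IDH1 minus each other gene shifted down without overlap for IDH2, IDH3B, IDH3G, DLST and DLD, and with overlap for IDH3A (-0.15, SE 0.08) and OGDH (-0.14, SE 0.05). The position of IDH1 as the largest change was thus not separated from IDH3A or OGDH beyond the spread between arrays.

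**Figure D3:**
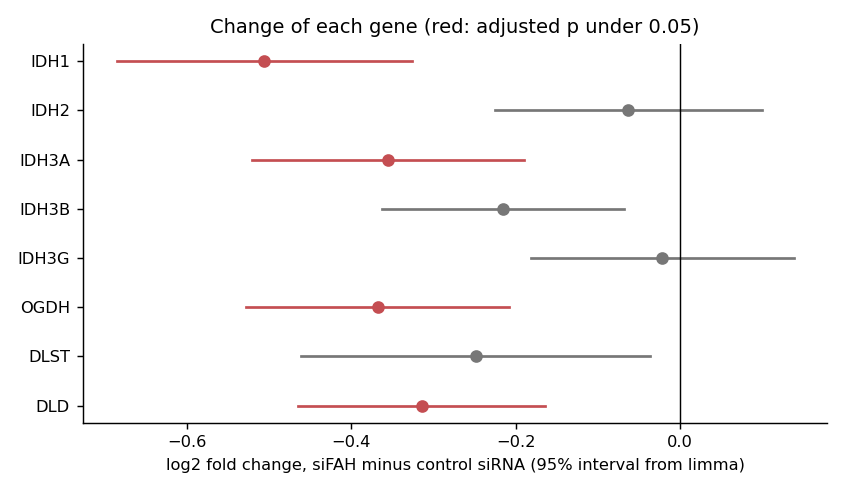
The horizontal axis gives the log2 fold change of siFAH over control for each gene, drawn with its 95% interval from limma, red where the adjusted p was under 0.05 and gray otherwise. The values run from -0.51 for IDH1 to -0.02 for IDH3G, and the intervals of IDH2 and IDH3G include 0.

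The arrays of a group also differed for these genes together. With each gene set to 0 at its control mean, the median over the 8 genes was -0.09 in control replicate 1, -0.01 in control replicate 2 and 0.08 in control replicate 3. In siFAH replicates 1, 2 and 3 it was -0.22, -0.28 and -0.31. All 8 genes were below their control mean in control replicate 1 and above it in control replicate 3, so the genes do not count as independent repeats of the comparison.

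The 5 genes whose array profile was most like that of IDH1, by the root mean square difference over the 6 arrays after each gene was set to 0 at its control mean, were ANXA5, ITGA5, SLC39A14, ROCK2 and PPP6C. ANXA5 (annexin, a phospholipid-binding protein) differed from IDH1 by 0.029, the integrin subunit ITGA5 by 0.029, the metal ion transporter SLC39A14 by 0.031, the kinase ROCK2 by 0.032 and the phosphatase subunit PPP6C by 0.033. Their log2 fold changes lay between -0.51 and -0.48, a closeness to IDH1 that follows from the choice, since it used the siFAH arrays too.

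The enzymes that lie next to these dehydrogenases were then counted from gene lists, with lower and higher meaning an adjusted p under 0.05 over all genes. Of 10 measured enzymes of the rest of the TCA cycle, 2 were lower, 0 were higher and 8 were not called, with a median log2 fold change of -0.21. Of all genes 6.38% were lower, but 8 of these 10 enzymes lay in the 2 brightest deciles, where 15.9% were, so 2 of 10 is near the share for bright genes. The lower ones were SUCLG1, a subunit of succinyl-CoA synthetase (-0.39, adjusted p = 0.0496), and MDH1. SUCLG1 held in 2 of the 6 fits that left out an array, those without control replicate 1 or siFAH replicate 1. Under the 19 other settings the count ran from 0 to 4, and it was 0 in 9 of them. These were quantile normalization, cyclic loess, the test of all probe sets, the methods' t-test, the replicate block and the fits without control replicate 2, control replicate 3, siFAH replicate 2 or siFAH replicate 3.

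Of 10 measured aminotransferases that use 2-oxoglutarate, 4 were lower and 0 were higher, against 6.38% and 3.48% of all genes, with a median of -0.26. Of the 10, 5 lay in the 2 brightest deciles. PSAT1, of serine synthesis, had -0.67 (adjusted p = 0.00198), GOT1 had -0.44 and BCAT1 had -0.41, and OAT, the ornithine aminotransferase, had -0.29 (adjusted p = 0.0401, a call lost with any of the 6 arrays left out). PSAT1 and BCAT1 were called in all 6 of those fits and GOT1 in 3, with no call when control replicate 2 or 3 or siFAH replicate 2 was absent, so the list's count ran from 2 to 3. OAT was picked out once its value was known.

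Of 4 measured genes of glutamine and glutamate conversion, ALDH18A1, which starts proline and ornithine synthesis from glutamate, was lower (-0.52, adjusted p = 0.00593, called with each array left out) and 3 were not called. No gene of 14 relatives of the oxoglutarate dehydrogenase complex and of lipoate synthesis was called by limma, although 2 were lower without dim genes and 1 with eBayes trend and robust. The largest change there was that of DLAT, the acetyltransferase core of the pyruvate dehydrogenase complex (-0.21, adjusted p = 0.0812), and the median was -0.05. No gene was called among 8 carriers and enzymes of 2-hydroxyglutarate either, where SLC25A11, the carrier of 2-oxoglutarate and malate, had -0.23 (adjusted p = 0.127). Over all genes 6.38% were lower and 3.48% higher. Lists this short cannot be set apart from those shares, so the counts of these 3 lists say little about the families.

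Of 42 measured dioxygenases that need 2-oxoglutarate, 5 were lower (11.9%, against 6.38% of all genes), 0 were higher and 37 were not called, with a median of -0.07. Of the 42, 14 lay in the 2 brightest deciles, where 15.9% of genes were lower, so brightness may account for part of the excess, which was not tested. The lower ones were OGFOD1, a hydroxylase of a ribosomal protein (-0.52, adjusted p = 0.00576), the histone demethylases KDM7A (-0.47, adjusted p = 0.0345) and KDM4A (-0.34, adjusted p = 0.0157), and the nucleic acid dioxygenases ALKBH1 (-0.40, adjusted p = 0.0119) and ALKBH8 (-0.36, adjusted p = 0.0427). OGFOD1 was called with each array left out, ALKBH1 in 5 of those 6 fits (0.0502 without siFAH replicate 3), KDM7A and KDM4A in 2 and ALKBH8 in 1, and the list's count ran from 1 (without siFAH replicate 3) to 6. The DNA dioxygenases TET1, TET2 and TET3 had -0.04, 0.01 and 0.02, and the oxygen sensors EGLN1, EGLN3 and HIF1AN had -0.03, 0.14 (adjusted p = 0.257, with the siFAH arrays above all control arrays) and -0.05. KDM4A, ALKBH8 and these 6 were picked out once their values were known.

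**Figure D4:**
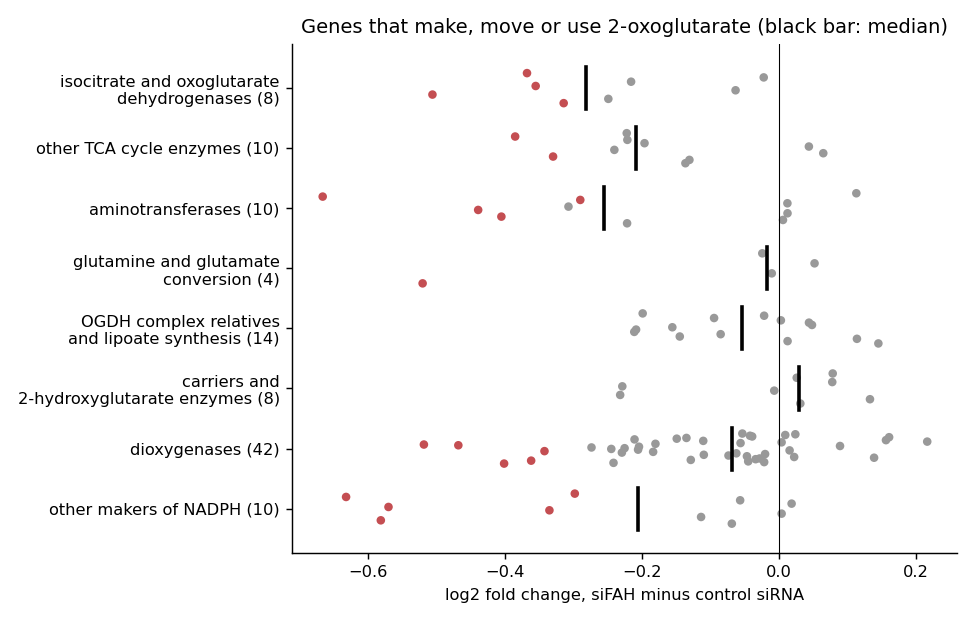
The horizontal axis gives the log2 fold change of siFAH over control for every measured gene in 8 groups, with the number of genes in parentheses. Points are genes, red where the adjusted p was under 0.05, and black bars are medians, from -0.28 for the isocitrate and oxoglutarate dehydrogenases to 0.03 for carriers and 2-hydroxyglutarate enzymes, a value that was negative under the other 3 scalings.

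**Figure D5:**
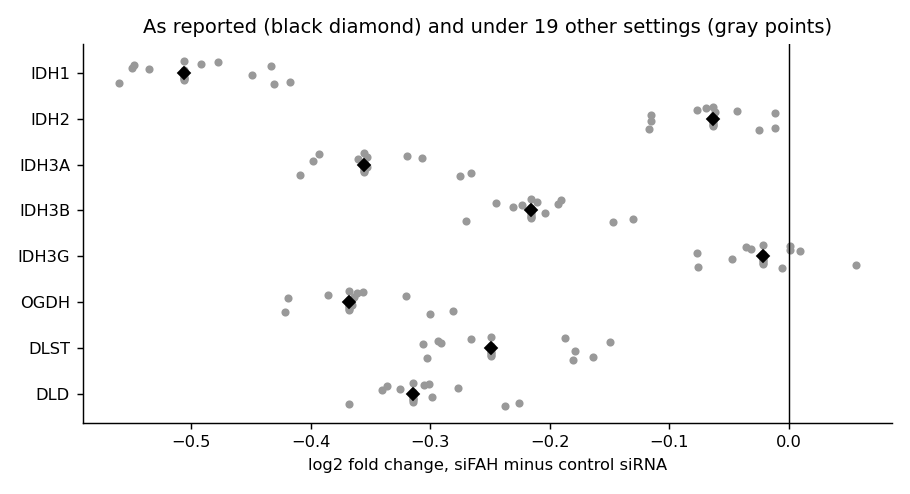
The horizontal axis gives the log2 fold change of siFAH over control for each gene as reported (black diamonds) and under 19 other settings of normalization, filter, test and arrays (gray points). IDH1 lies between -0.56 and -0.42 and stays apart from IDH2, which lies between -0.12 and -0.01, and IDH3G alone crosses 0. Only the normalizations, array weights and left-out arrays could move a point. The settings of test, filter, probe sets and block leave these fold changes as they were.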

How the data were processed

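RNA of A375 cells was measured on 6 arrays, 3 per group. The authors made the deposited log2 signals by RMA (version not given in the sources used here) with global scaling as normalization, which yields 1 value for each of 28829 probe sets. No further scaling was applied. Of these, 19291 probe sets had 1 gene symbol in the platform annotation, 1735 had several and 7803 were unnamed here. The probe set with the highest mean per symbol was kept (18372 genes).

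The groups, taken from the transfection labels, were compared by limma 3.58.1 (lmFit, then eBayes, under R 4.3.3) over all 18372 genes, as siFAH relative to control, with two-sided p values adjusted by Benjamini and Hochberg. Genes were called at an adjusted p under 0.05. The study's own DEGs came from SAM with 1.2-fold and p under 0.05, which was rerun with all 20 arrangements of the labels as an alternative. Differences between 2 genes were tested by exact permutation over arrays, and their intervals come from the pooled SD of the 3 and 3 arrays. Arrays have no read depth, and their number limits the precision. The fits were tested on simulated data.

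The genes and lists were chosen with earlier results of these data known. Named genes were FAH, the listed dehydrogenases, the isoform pairs, in each list the 3 called genes with the largest change (the largest change where none was called), and the 5 genes nearest IDH1. Alternatives were quantile normalization, median centring, cyclic loess, a filter on dim genes, averaged or separate probe sets of a gene, the trend and robust options of eBayes, weights for arrays, the methods' t-test, the study's limits with limma and with SAM, a replicate block and leaving out each array. The p values of the t-test were adjusted over all genes here, whereas the methods state p under 0.05 and no adjustment. Testing protein-coding genes alone was added after seeing the data. Plots used Python 3.11.15 and matplotlib 3.10.9.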

Additional observations from a re-analysis of the deposited data

How the results depend on the processing

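The number of dehydrogenase genes called lower was 4, and 0 were called higher under any setting. The number was 0 with the methods' t-test after adjustment over all genes, which called 8 lower and 6 higher genes of all 18372. The methods state no such adjustment for that test, so this is not the study's own result. The number was 5 with median centring, without dim genes, with eBayes trend and robust, or with array weights. Leaving out each array in turn gave 1 to 4. Of the 4, IDH1 was called in all 6 of those fits, IDH3A and OGDH in 3 each and DLD in 2. IDH1 minus IDH2 stayed negative under all settings computed. It ran from -0.54 to -0.37 as each array was left out and was -0.41 after quantile normalization or cyclic loess. Median centring and averaged probe sets cannot change this difference, so their values are no check on it. With the replicate number as a replicate block, 3 genes were lower (DLD had an adjusted p of 0.0651). IDH1 minus IDH2 was -0.44, which the block cannot alter. Its exact p from flipping the signs of the paired differences was 0.25, the smallest that 3 pairs allow. The deviations of same-numbered arrays did not rise and fall together (correlations of -0.155, -0.0891 and -0.274 over genes). With 3 arrays per group, and shifts shared by many genes of an array, these correlations cannot decide whether same-numbered samples were paired. The labels do not say. The block cut the calls over all genes from 1172 lower and 639 higher to 462 and 299. Over all genes the lower and higher calls were 1678 and 416 with median centring, 893 and 695 after cyclic loess and 1743 and 1170 with array weights. Without dim genes, where 9186 genes were tested, they were 1733 (18.9%) and 725 (7.89%). Without control replicate 2, control replicate 3, siFAH replicate 2 or siFAH replicate 3 they were 472 and 267, 438 and 289, 440 and 271, and 390 and 267. The cause of these shifts was not tested. With 3 arrays per group no exact permutation test can pass 0.05, and a probe set reports a single average over a gene's transcripts.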

Other observations

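NADPH, which IDH1 and IDH2 make alongside 2-oxoglutarate, also comes from other enzymes, and of 10 of these 5 were lower after FAH silencing, 0 were higher and 5 were not called, with a median log2 fold change of -0.21. Of all genes 6.38% were lower and 3.48% higher, and 5 of the 10 lay in the 2 brightest deciles, where 15.9% were lower. The lower ones were the mitochondrial transhydrogenase NNT (-0.63, SE 0.10, adjusted p = 0.00552 from limma), the folate enzymes ALDH1L2 (-0.58, adjusted p = 0.0142), MTHFD2 (-0.57, adjusted p = 0.00317) and MTHFD1 (-0.34, adjusted p = 0.0128), and PGD of the pentose phosphate pathway (-0.30, adjusted p = 0.0422). NNT and MTHFD2 were called with each array left out, ALDH1L2 without 4 of the 6, MTHFD1 without 5 and PGD without 1. The malic enzymes ME1 and ME3 had -0.11 and 0.0043, and the NAD kinases NADK and NADK2 had 0.02 and -0.06. As each array was left out the number of lower genes ran from 2 to 5, with 2 without siFAH replicate 3 and 3 without control replicate 3. It was 0 by the methods' t-test with p values adjusted over all genes. MTHFD1, PGD, ME3, NADK and NADK2 were named after their values were seen.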
